A study of Mus musculus with 69 samples.

Results

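The genes described here make ribosomes. The set holds 38 mouse genes of ribosome biogenesis, chosen by gene symbol, and 36 of them were measured by a probe set that carries 1 gene symbol, out of 18820 such genes on the arrays. Tsr1 and Ebna1bp2 lay on probe sets that carry several symbols and were not used. Where a gene had several probe sets, the one with the highest mean was taken, and no member was removed for a low value. By role the 36 measured genes comprise 3 of RNA polymerase I transcription, 4 of the box C/D and 3 of the box H/ACA ribonucleoproteins, 12 of small subunit and 11 of large subunit assembly, and 3 nucleolar scaffold and helicase genes.

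Ribosomes are assembled in the nucleolus, where RNA polymerase I transcribes the ribosomal RNA precursor. Small nucleolar ribonucleoproteins then modify it (box C/D particles by methylation of ribose, box H/ACA particles by turning uridine into pseudouridine), and assembly factors cut the precursor and load ribosomal proteins onto it to form the small and the large subunit. Cells that enter growth raise this pathway, the transcription factor Myc is a known activator of many of its genes, and in skin the phorbol ester TPA (12-O-tetradecanoylphorbol-13-acetate), an activator of protein kinase C and a classical tumour promoter, drives the epidermis into proliferation.

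RNA of mouse dorsal skin was measured on 69 Affymetrix arrays. The mice were of 3 kinds, the inbred strain FVB/N (here FVB), Spret/Ei (SPR), a strain derived from Mus spretus, and their cross FVB/N x Spret/Ei (F1). Per the labels, mice were 8 weeks old, and their backs were shaved 2 days before a single dose of TPA in acetone. No other allele or agent is given. The controls were the 0 h arrays, whose skin the labels call untreated, 3 of FVB, 4 of F1 and 2 of SPR, and no arrays of the vehicle are among the samples used here, so effects of vehicle and of shaving cannot be told apart from those of TPA. Treated FVB skin was sampled at 2, 6, 12, 24, 48, 72, 168 and 1008 h with 3 arrays each. The F1 times comprised 4, 6, 12, 24 and 72 h (2 arrays per time), 48 h (3 arrays), 1008 h (6 arrays), and single arrays for 2 and 168 h. The SPR times comprised 4, 12, 24, 48 and 1008 h (2 arrays per time) and single arrays for 2 and 6 h. The treatment protocol lists times up to 1 week without 12 h, and repeated exposure is named in the design text, so what the mice sampled at 1008 h received is not certain. The strain of 3 further arrays is not given, and they entered no comparison.

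The values are log2 expression values as deposited. A gene is called higher or lower here at a Benjamini-Hochberg adjusted p under 0.05 over all 18820 genes in a limma fit of the 66 assigned arrays, two-sided, with no fold threshold. Errors after ± are standard errors of that fit, and changes are log2 differences from 0 h of the same strain unless another pair is named. The labels do not tie arrays to separate mice, so p-values measure the spread between arrays. The arrays hold whole skin, in which more cells of a type and more RNA per cell cannot be told apart. All 3 FVB controls enter every FVB comparison against 0 h, so counts at different times share them.

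A pair of arrays stands apart and touches several results. The values of the first SPR array at 12 h had an interquartile range of 1.62 and those of the second F1 array at 72 h one of 2.47, while the other assigned arrays had 3.32 to 3.72. Both lower the members' median change in their own group and enlarge the spread that all groups share, so counts without these 2 arrays are given where they differ. FVB controls 2 and 3 carried liver transcripts, with scores (mean log2 value of a list's genes, each gene centred on its mean over the 66 assigned arrays) of 2.18 and 2.62 against -0.59 in control 1, whereas the members' scores of the same 3 arrays were -0.58, -0.47 and -0.60. Transcripts of the pancreas scored 1.17 and 1.91 in the same controls 2 and 3 (-0.77 in control 1), -0.62, 1.38 and 3.77 in the FVB arrays of 6 h, and 1.83 and -0.06 in the SPR controls, and their part in the results was not tested. All FVB arrays belong to batch 1 of the labels, and F1 and SPR arrays to batches 2 and 3, so levels were not compared between FVB and the other strains. The 7 basal keratinocyte markers, among them Krt5 and Krt14, measured at least 6.81 in every assigned array, and 1 of them was called higher and 1 lower in FVB at 6 h.

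Promoter sequences, from 250 bases before to 50 bases after the transcription start, were found in RefSeq (GRCm38.p6) for 33 of the 38 members. Each was searched for CACGTG, the E-box recognised by the Myc and Max dimer, which reads the same on both strands, and for CCGGAAG, a core of sites of ETS family factors, on both strands. The 2 motifs share no position. CACGTG was present in 7 of 33 member promoters (21.2%), against 7.9% of 17491 promoters of protein-coding genes, and CCGGAAG in 12 (36.4%) against 11.9%. Among the promoters of other ribosome biogenesis genes the shares were 19 of 90 (21.1%) for CACGTG and 40 of 90 (44.4%) for CCGGAAG. Promoters of ribosomal protein genes held CACGTG in 5 of 56 (8.93%) and CCGGAAG in 22 of 56 (39.3%). Those of DNA replication genes held CACGTG in 4 of 26 (15.4%) and CCGGAAG in 9 of 26 (34.6%), the latter close to the members' 36.4%. Of 28 promoters of mitosis genes, 3 held CACGTG and 7 held CCGGAAG. The members with CACGTG were Mybbp1a, Utp20, Wdr43, Ltv1, Tsr1, Pes1 and Nop2, and in 6 of these 7 it lay after the start. The 4 promoters printed here, 5′ to 3′ with the motifs in capitals, show the E-box at different distances from the start, at +41 in Mybbp1a, +18 in Wdr43, +3 in Pes1 and -60 in Nop2, where a CCGGAAG follows it.
Mybbp1a (chr11:72441077-72441376, + strand): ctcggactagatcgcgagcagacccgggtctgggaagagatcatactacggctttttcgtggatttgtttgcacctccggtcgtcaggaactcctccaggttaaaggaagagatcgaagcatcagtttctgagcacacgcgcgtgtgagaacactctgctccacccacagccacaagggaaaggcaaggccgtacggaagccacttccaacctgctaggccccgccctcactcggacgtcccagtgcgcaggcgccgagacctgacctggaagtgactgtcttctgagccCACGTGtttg
Wdr43 (chr17:71615965-71616264, + strand): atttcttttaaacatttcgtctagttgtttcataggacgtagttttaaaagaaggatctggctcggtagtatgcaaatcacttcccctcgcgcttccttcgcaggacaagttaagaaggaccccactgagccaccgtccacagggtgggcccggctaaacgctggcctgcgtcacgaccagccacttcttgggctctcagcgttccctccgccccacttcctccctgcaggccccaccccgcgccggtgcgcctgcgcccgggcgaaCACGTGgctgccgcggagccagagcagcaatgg
Pes1 (chr11:3963725-3964024, + strand): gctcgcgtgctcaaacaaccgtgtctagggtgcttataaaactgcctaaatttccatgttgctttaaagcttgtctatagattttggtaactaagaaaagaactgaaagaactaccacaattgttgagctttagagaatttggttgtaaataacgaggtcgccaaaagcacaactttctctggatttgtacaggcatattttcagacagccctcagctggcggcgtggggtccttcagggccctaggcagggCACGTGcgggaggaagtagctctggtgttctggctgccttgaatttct
Nop2 (chr6:125131633-125131932, + strand): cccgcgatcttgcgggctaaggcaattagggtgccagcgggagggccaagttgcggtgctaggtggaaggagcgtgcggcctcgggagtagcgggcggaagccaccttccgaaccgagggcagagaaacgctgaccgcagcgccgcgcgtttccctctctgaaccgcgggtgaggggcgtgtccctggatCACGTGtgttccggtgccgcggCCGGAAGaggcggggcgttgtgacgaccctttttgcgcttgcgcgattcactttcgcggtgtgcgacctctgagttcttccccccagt

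The measured members with and without CACGTG changed by similar medians, as a description of 6 against 25 genes. In FVB at 6 h the medians were 1.42 with and 1.39 without it, in F1 at 4 h 1.39 and 1.44, and in SPR at 4 h 1.07 and 1.00. A match describes only the letters in this window.

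In FVB skin the whole set rose within hours of TPA and was back near control values by 48 h. At 6 h all 36 members were called higher, with a median log2 change of 1.40 and a range of 0.76 to 2.05, whereas 12.1% of all genes were called higher and 12.6% lower at that time. In all 36 members the 3 arrays of 6 h lay above the 3 arrays of 0 h, which held for 21.9% of all genes. At 2 h 23 members were called higher (median 0.96) against 6.52% of all genes higher and 7.86% lower, and 34 members had no overlap between the groups against 20.4% of all genes. At 12 h all 36 members were called higher (median 1.20, range 0.67 to 2.21) against 11.6% of all genes. The score of the 36 members was between -0.60 and -0.47 in the controls, 0.25 to 0.58 at 2 h, 0.74 to 0.97 at 6 h and 0.62 to 0.85 at 12 h. Without FVB controls 2 and 3, which leaves 1 control array, fewer members were called at 2, 6 and 12 h, with medians of 1.11, 1.5 and 1.32. The share of all genes called in that fit is not given here, so the loss of calls cannot be set against it. At 2 h 31 members were called higher without the 2 narrow arrays (11.6% of all genes in that fit).

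**Figure D1:**
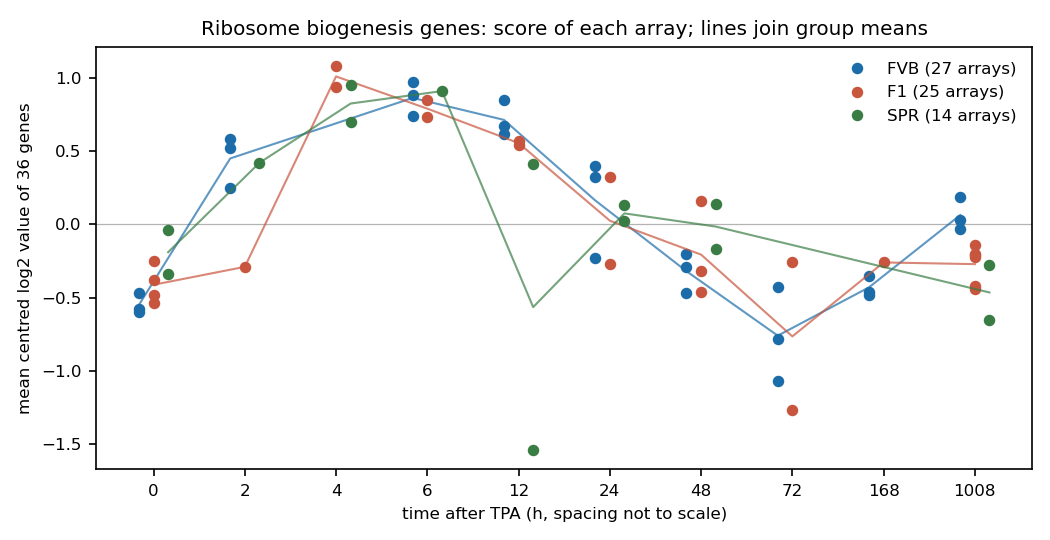
Score of the 36 ribosome biogenesis genes in each assigned array (points), by hours after TPA with spacing not to scale; the score is the mean log2 value after centring each gene, and lines join group means. The FVB arrays rise from between -0.60 and -0.47 at 0 h to between 0.74 and 0.97 at 6 h, and the SPR array at -1.54 at 12 h is the one of narrow range.

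Among the 3 genes of RNA polymerase I transcription, 1 was called higher at 2 h and all 3 at 6 and 12 h. Mybbp1a (probe set 10378088), a nucleolar protein that associates with the polymerase I machinery and with Myb, measured 8.11, 8.03 and 7.95 in the 0 h arrays and 9.64, 9.77 and 9.63 at 6 h. That is a log2 change of 1.65 ± 0.35 (3.14-fold, limma adjusted p = 0.000429). Its 2 h arrays, at 8.57, 9.06 and 9.13, already lay above every control, and its 12 h arrays stayed at 9.36 to 9.69. Polr1b (10475965), which encodes the second largest subunit of RNA polymerase I, measured 7.99, 8.19 and 8.27 at 0 h, 9.14, 9.52 and 9.41 at 2 h and 9.44, 9.52 and 9.61 at 6 h. The change at 6 h was 1.37 ± 0.32 (2.58-fold, limma adjusted p = 0.00108), and the 2 h and 6 h arrays of Polr1b overlapped.

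Of the 4 box C/D genes, 3 were called higher at 2 h and 4 at 6 h. Nop56 (10476093) and Nop58 (10346634) encode the paired core proteins that hold the methylase fibrillarin (Fbl) on its guide RNA. Nop56 measured 8.80, 8.76 and 8.69 at 0 h, 9.88, 9.94 and 10.16 at 2 h and 10.35, 10.67 and 10.52 at 6 h, a change of 1.76 ± 0.43 at 6 h (3.40-fold, limma adjusted p = 0.00189). Nop58 measured 7.71, 7.56 and 7.89 at 0 h and 9.36, 9.44 and 9.23 at 6 h, a change of 1.62 ± 0.36 (3.08-fold, limma adjusted p = 0.000544). For both genes each treated array from 2 to 12 h lay above all 3 controls. Of the 3 box H/ACA genes, 0 were called at 2 h and 3 at 6 h, and their median change was 0.62 at 2 h and 1.24 at 6 h. Gar1 (10502146), a small core protein of these particles, measured 7.23, 7.25 and 7.42 at 0 h, 7.96, 8.20 and 7.87 at 2 h, 8.92, 8.86 and 8.74 at 6 h, and 9.10, 9.19 and 8.23 at 12 h. Its change at 6 h was 1.54 ± 0.33 (2.91-fold, limma adjusted p = 0.00037). Dkc1 (10600485), which encodes the pseudouridine synthase dyskerin, measured 8.32, 8.34 and 8.62 at 0 h, 8.67, 9.07 and 9.07 at 2 h, 9.69, 9.60 and 9.70 at 6 h, and 9.76, 9.99 and 9.92 at 12 h. The change of Dkc1 at 6 h was 1.24 ± 0.36 (2.36-fold, limma adjusted p = 0.00846). Its 2 h arrays sat close above the controls, and its 6 h and 12 h arrays sat well above both. Without FVB controls 2 and 3 the changes of Nop56 (1.71) and Dkc1 (1.34) had adjusted p = 0.0664 and 0.0846.

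Of the 12 small subunit genes 11 were called higher at 2 h and all 12 at 6 and 12 h, with medians of 1.26 and 1.40 at 2 and 6 h. Rrp12 (10467653), a factor of small subunit export and maturation, had the largest change of the 36 members at 6 h. It measured 6.27, 6.19 and 6.07 at 0 h, 7.74, 8.15 and 7.98 at 2 h, 8.23, 8.39 and 8.06 at 6 h, and 7.82, 8.04 and 7.55 at 12 h. Its change at 6 h was 2.05 ± 0.24 (4.13-fold, limma adjusted p = 1.59e-08), with most of the rise present at 2 h. Rrp9 (10588522), a protein of the U3 particle that guides early cleavage of the precursor, measured 6.29, 6.52 and 6.36 at 0 h, 7.46, 8.14 and 7.97 at 2 h and 8.33, 8.38 and 8.20 at 6 h. Its change was 1.92 ± 0.18 (3.78-fold, limma adjusted p = 8.88e-11), and the 2 h and 6 h arrays of Rrp9 did not overlap.

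Of the 11 large subunit genes, 7 were called higher at 2 h and all 11 at 6 and 12 h. Rrs1 (10344723), which helps load the 5S ribonucleoprotein, measured 4.41, 4.90 and 4.63 at 0 h, 5.72, 5.88 and 6.25 at 2 h, 6.62, 7.21 and 6.08 at 6 h, and 6.88, 6.47 and 7.22 at 12 h. Its change was 1.99 ± 0.49 at 6 h (3.98-fold, limma adjusted p = 0.002) and 2.21 ± 0.49 at 12 h, with a wide spread between arrays. Gnl3 (10418480), the nucleolar GTPase nucleostemin, measured 7.45, 7.36 and 7.50 at 0 h, 8.80, 9.21 and 9.15 at 2 h and 9.34, 9.27 and 8.79 at 6 h. Its change at 6 h was 1.69 ± 0.27 (3.24-fold, limma adjusted p = 4.75e-06), and its arrays from 2 to 12 h overlapped one another, all above the controls. The smallest change at 6 h among the 36 members was that of Nhp2, a box H/ACA core protein, at 0.76 ± 0.24 (limma adjusted p = 0.0155).

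The 3 nucleolar scaffold and helicase genes differed at 2 h, when 1 of the 3 was called. Ddx21 (10369630), an RNA helicase of the nucleolus, measured 8.34, 8.42 and 8.72 at 0 h, 9.54, 10.12 and 9.99 at 2 h and 10.47, 10.44 and 10.30 at 6 h, a change of 1.91 ± 0.36 (3.76-fold, limma adjusted p = 7.76e-05). Ncl (10356312), the abundant nucleolar protein nucleolin, measured 9.82, 9.80 and 10.05 at 0 h, 10.24, 10.48 and 10.42 at 2 h and 11.33, 11.51 and 11.24 at 6 h, a change of 1.47 ± 0.37 (2.78-fold, limma adjusted p = 0.00258; 1.55 with adjusted p = 0.0526 without FVB controls 2 and 3). Its 2 h arrays lay between the controls and the 6 h arrays without touching either. Npm1, the nucleolar chaperone nucleophosmin, is described here because of its values: it measured 10.23, 10.28 and 10.82 at 0 h, 10.53, 10.58 and 10.51 at 2 h, 11.52, 11.45 and 11.35 at 6 h and 11.82, 11.69 and 11.50 at 12 h. Its 2 h arrays fell within the range of the controls, and its change at 6 h was 0.99 ± 0.33 (limma adjusted p = 0.0213). Other probe sets of Ncl and Pes1 with low values changed by 0.26 and -0.24 at 6 h.

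**Figure D2:**
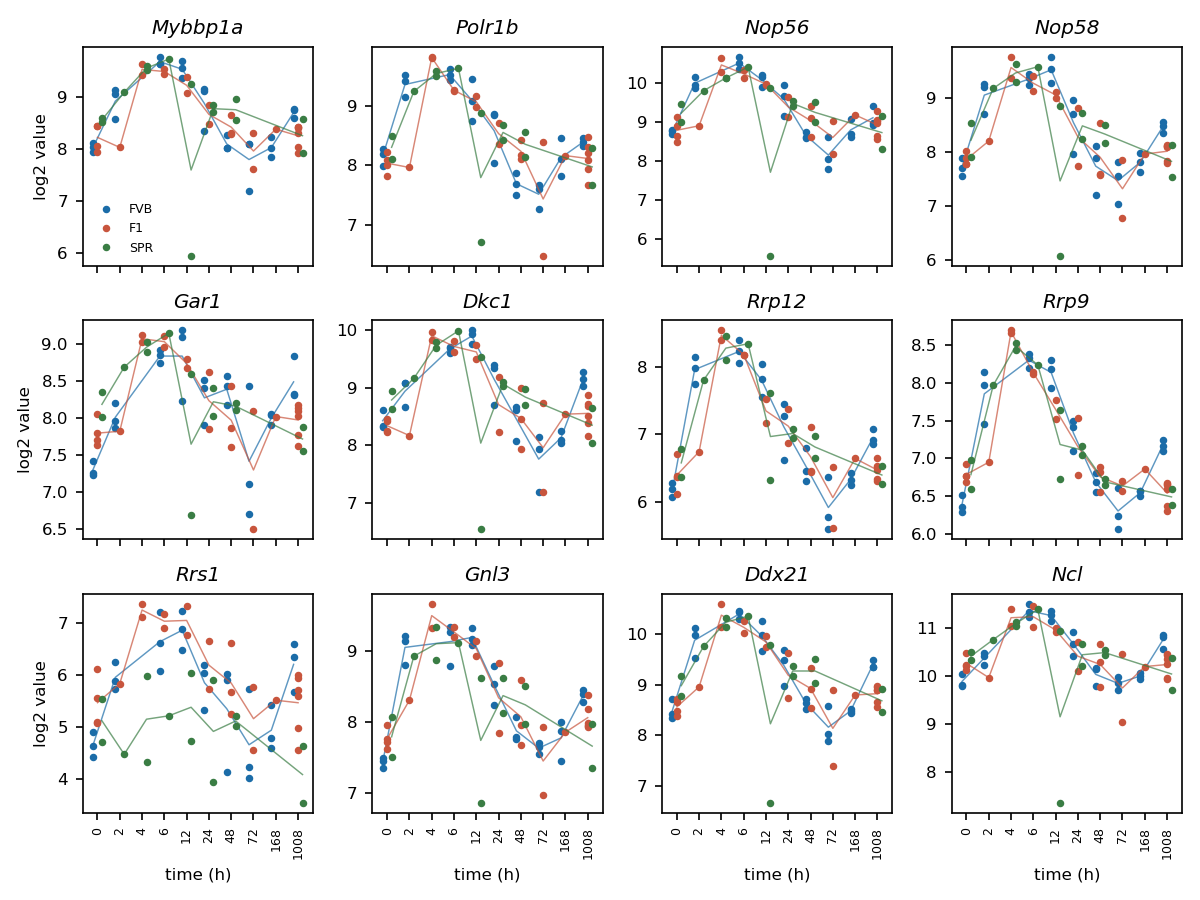
log2 values of the 12 members described by array (2 of each role with the largest called rise in FVB at 6 h), against hours after TPA with spacing not to scale; points are arrays and lines join group means in FVB, F1 and SPR. In FVB the 6 h arrays of every panel lie above the 0 h arrays, for example 8.23, 8.39 and 8.06 against 6.27, 6.19 and 6.07 for Rrp12.

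The members reached their highest FVB mean earlier than genes of DNA replication and of mitosis. Over 0 to 72 h the highest group mean fell at 2 h for 3 members (Utp15, Wdr43 and Ltv1), at 6 h for 26 and at 12 h for 7 (Fbl, Nop58, Dkc1, Nhp2, Rrs1, Gnl3 and Npm1). Of 30 DNA replication genes it fell at 12 h for 20 and at 24 h for 10, and of 28 mitosis genes it fell at 24 h for 28. Of 96 other ribosome biogenesis genes it fell at 6 h for 58, and of 66 ribosomal protein genes at 72 h for 58. Of all genes, the highest mean fell at 2 h for 15.1%, 6 h for 15.5%, 12 h for 12.3%, 24 h for 8.13% and 72 h for 12.9%. The time of a highest mean is a description of 3 arrays a group.

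Comparisons between treated FVB times, which leave out the controls, also placed the members before the genes of DNA replication and mitosis. They did not separate 6 h from 12 h for the members. From 2 to 6 h 1 member was called higher, Wdr12 (a large subunit assembly factor, 0.78 ± 0.24), with a median of 0.39 and 3.48% of all genes higher; 13 were called without the 2 narrow arrays (9.5% of all genes in that fit). From 6 to 12 h 0 members were called higher or lower by limma (median -0.17; 1.56% of all genes higher), while 25 of 30 DNA replication genes and 8 of 28 mitosis genes were called higher. From 6 to 24 h 15 members were called lower and 0 higher (median -0.73; 6.94% of all genes lower, 6.18% higher). Those 15 comprised 9 of 12 small subunit genes, 4 of 11 large subunit genes and 2 of 3 genes of RNA polymerase I transcription. Over the same interval 25 of 30 DNA replication genes and 27 of 28 mitosis genes were called higher. From 12 to 24 h 2 members were called lower, Rrp9 (-0.80) and Nop14 (-0.70), with a median of -0.57, 0.707% of all genes lower and 1% higher, and 27 of 28 mitosis genes were called higher. The intervals from 6 to 24 h and from 12 to 24 h had 26 and 16 members lower without the 2 narrow arrays (13.2% and 3.87% of all genes in that fit). Leaving out FVB array 1 or 2 of 6 h or array 1 of 24 h left 7, 6 and 4 members called lower from 6 to 24 h, the single call from 2 to 6 h was lost without any 1 of its 6 arrays, and the calls from 12 to 24 h fell to 0 or 1 without array 1, 2 or 3 of 12 h or array 1 or 3 of 24 h.

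**Figure D3:**
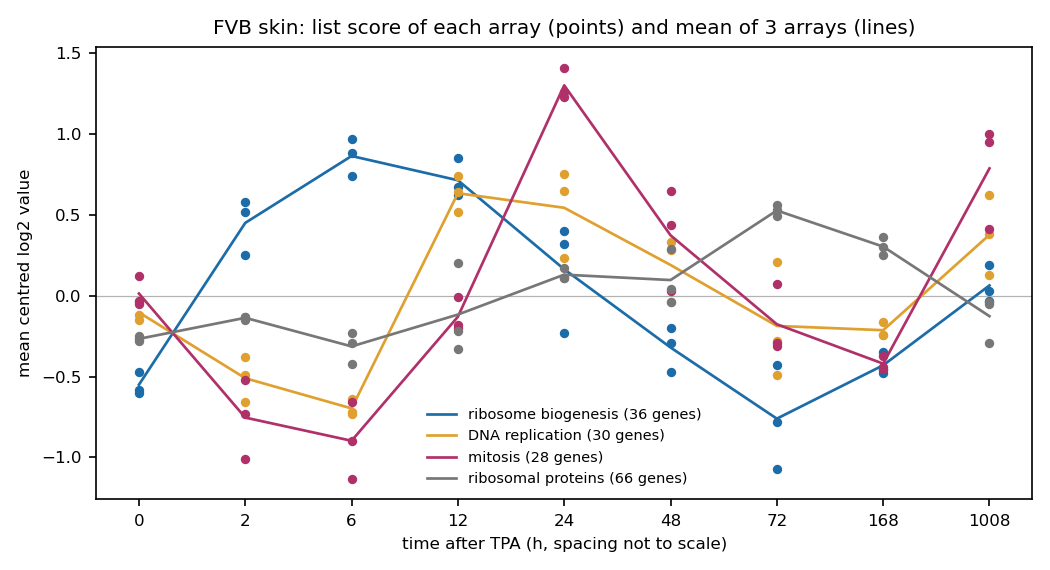
Scores of 4 gene lists in the 27 FVB arrays (points) with lines through the means of 3 arrays, against hours after TPA with spacing not to scale. The 36 ribosome biogenesis genes are highest at 6 h (0.74 to 0.97), when the 28 mitosis genes score -0.66, -1.13 and -0.90, and the mitosis genes are highest at 24 h (1.26, 1.41 and 1.23).

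At 6 h, when all 36 members were called higher, 0 of 30 DNA replication genes were called higher by limma (0 at an unadjusted p under 0.05) and 14 lower, among them Pole (-2.04), Mcm6 (-1.54), Rfc5 (-1.26) and Lig1 (-1.22). Of 28 mitosis genes 0 were called higher by limma (0 at an unadjusted p under 0.05) and 20 lower, among them Ccna2 (-1.92), Ccnb2 (-1.52), Cenpf (-1.5) and Mki67 (-1.47). At 12 h 17 DNA replication genes were called higher, led by Rrm2, a subunit of ribonucleotide reductase (1.66 ± 0.33), Gins1 (1.47 ± 0.24), Ccne1 (1.37 ± 0.20) and Cdc6 (1.14 ± 0.22). At 24 h 26 mitosis genes were called higher, led by Kif2c (1.82 ± 0.31), Cdc20 (1.58 ± 0.22), Bub1b (1.57) and Cenpa (1.57).

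By 24 h the members were lower than at 6 h but not all at control values. At 24 h 11 were called higher than at 0 h (median 0.72, range 0.13 to 1.20; 6.11% of all genes). Of these 5 were large subunit genes, 3 small subunit genes, 2 box H/ACA genes and 1 a box C/D gene. The 24 h arrays were uneven, with member scores of -0.23, 0.32 and 0.40, and the first of them also carried liver transcripts (score 2.07); their part in the result was not tested. Rrp12 measured 6.61, 7.27 and 7.45 and Rrp9 7.10, 7.42 and 7.49 at 24 h, all above their controls. Without the 2 narrow arrays 27 members were called at 24 h (12.1% of all genes in that fit). Fewer than 11 were called without FVB controls 2 and 3, which leaves 1 control array. Leaving out array 1 of 24 h gave 17 calls, array 2 gave 7 and array 3 gave 5, and leaving out control 1 or 2 gave 6 and 7.

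At 48 h 2 members were called higher, Gar1 and Nip7 (a large subunit factor), with a median of 0.16 over the 36 and 6.93% of all genes higher; 8 were called without the 2 narrow arrays (13.9% of all genes in that fit), and 0 or 1 without any 1 of the 6 arrays compared. From 24 to 48 h 0 members were called lower by limma (median -0.53; 17 at an unadjusted p under 0.05; 0.404% of all genes lower), and 15 without the narrow arrays (3.44% of all genes in that fit). At 72 h 0 members were called higher (1.47% of all genes) and 2 lower (1.84% of all genes), with a median of -0.18. These were Nolc1, a chaperone of small nucleolar ribonucleoproteins, and Bop1, a large subunit processing factor. Nolc1 measured 7.72, 7.88 and 8.18 at 0 h and 7.39, 6.94 and 6.57 at 72 h (-0.96 ± 0.25, limma adjusted p = 0.0232). Bop1 measured 8.08, 8.07 and 8.01 at 0 h and 7.43, 7.15 and 6.88 at 72 h (-0.90 ± 0.22, limma adjusted p = 0.0194). For both genes every 72 h array lay below every control. Without the narrow arrays 7 members were called lower at 72 h (8.72% of all genes in that fit), and 0 were without control 2, control 3 or array 3 of 72 h, or after centring each array on its median, and 1 without array 2 of 72 h. At 168 h 0 members were called in either direction by limma (median 0.12; 3 higher and 0 lower at an unadjusted p under 0.05; 0.308% of all genes higher).

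At 1008 h 9 members were again called higher in FVB (median 0.60, with 8.17% of all genes higher): Bysl, Rrp9, Gar1, Nip7, Npm1, Gnl3, Rrp12, Rrs1 and Wdr12. What the mice of this time received is not certain. No untreated skin of the same time is among the samples used here, so age and hair cycle cannot be told apart from treatment. Rrp9 measured 7.25, 7.10 and 7.16 at 1008 h (0.78), above its controls and below its 6 h arrays. Bysl, a small subunit factor, measured 5.93, 6.00 and 6.14 at 0 h and 6.96, 7.17 and 6.98 at 1008 h (1.01), without overlap. Npm1 measured 11.39, 11.84 and 11.63 at 1008 h (1.18), overlapping its 12 h arrays. Compared with 168 h, 3 members were called higher, Bysl (0.89), Rrp9 (0.62) and Nolc1 (0.78), with a median of 0.49 and 5.42% of all genes higher. The counts against 0 h and 168 h were 22 and 15 without the 2 narrow arrays (13.8% and 10.2% of all genes in that fit). Against 0 h, fewer than 9 members were called without FVB controls 2 and 3, which leaves 1 control array. Leaving out array 2 of 1008 h left 5 called against 0 h, and leaving out array 1 of 1008 h or array 2 of 168 h left 1 called against 168 h. In the same FVB arrays 6 of 7 hair matrix markers were called higher, with scores of 1.31 to 1.71 against -0.14 to -0.01 in the controls, 6 of 7 T cell markers were called lower (scores of -0.88 to -0.72 against 0.33 to 1.39), and 18 of 28 mitosis genes were called higher. The part of these cell types in the members' rise was not tested.

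**Figure D4:**
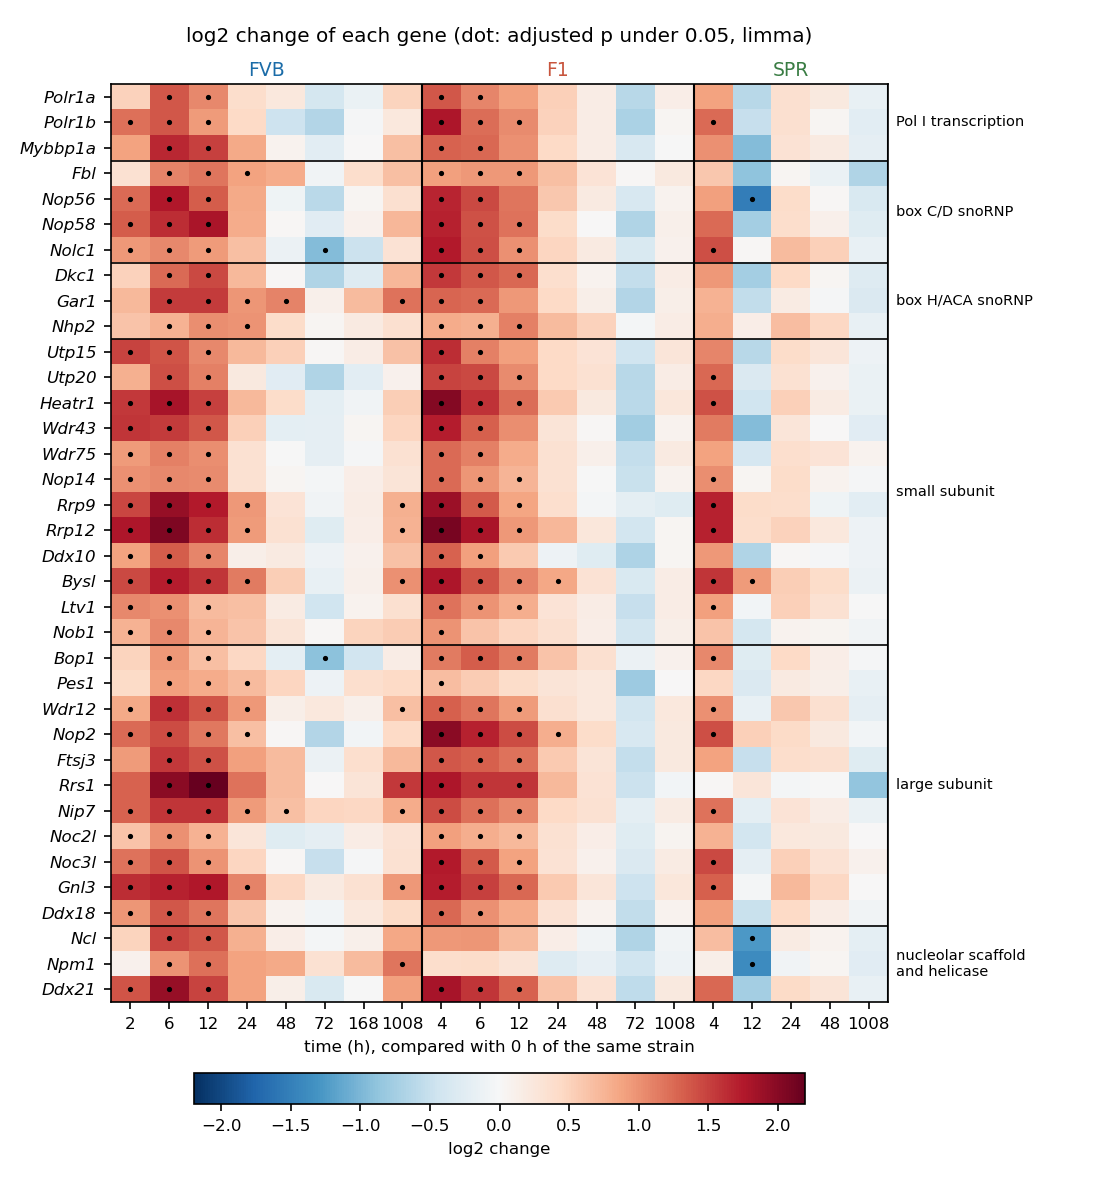
log2 change from 0 h of each of the 36 members (rows, by role) at each tested time in FVB, F1 and SPR (columns); red is higher, blue is lower and a dot marks a limma adjusted p under 0.05. All 36 members carry a dot in FVB at 6 and 12 h, 34 in F1 at 4 h and 15 in SPR at 4 h, and the blue SPR column at 12 h contains the narrow array.

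Other genes of the pathway moved with the members. Of 96 further ribosome biogenesis genes measured (of 110 written down), 41 were called higher and 0 lower in FVB at 2 h, and 69 higher and 0 lower at 6 h with a median of 0.89. The largest changes at 6 h were those of Nol10 (1.75 ± 0.30), Pwp2, a component of the small subunit processome (1.73 ± 0.26), Rrp15 (1.68 ± 0.28) and Mrto4, a large subunit factor (1.61 ± 0.25). At 12 h 65 were higher and 1 lower, at 24 h 18 and 0, and at 1008 h 16 and 1. Of 18 measured genes of RNA polymerase III, which makes 5S ribosomal RNA and transfer RNA, 6 were called higher at 6 h, led by the subunit gene Polr3d (1.42 ± 0.27), and 4 at 12 h.

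Ribosomal protein genes, which encode the building blocks that these factors assemble, did not follow that time course. Of 66 measured, 0 were called higher by limma at 2 and 6 h in FVB (1 and 2 at an unadjusted p under 0.05), with 1 lower at 6 h (Rps19, -0.95). At 12, 24, 48 and 72 h 1, 9, 7 and 19 were called higher, against 11.6%, 6.11%, 6.93% and 1.47% of all genes. The median change at 72 h was 0.82, with the largest changes for Rps12 (1.65 ± 0.34), Rpl9 (1.49), Rps23 (1.46) and Rps7 (1.43). Without the 2 narrow arrays 7 were higher and 14 lower at 6 h (17.2% and 17% of all genes in that fit). At 72 h 48 were higher and 0 lower in that fit (5.47% and 8.72% of all genes). At 72 h the members had a median of -0.18, so the 2 lists stood on opposite sides of 0.

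Myc, whose product binds E-boxes with Max, rose in FVB by 1.87 ± 0.31 at 2 h (limma adjusted p = 2.23e-05), 1.53 ± 0.31 at 6 h and 1.28 ± 0.31 at 12 h, and its change was 0.14 at 24 h (limma adjusted p = 0.828) and 0.09 at 1008 h. Of 12 measured Myc network genes, 3 were called higher and 3 lower at 6 h. Mxd1, which encodes a competitor of Myc for Max, also rose at 2, 6 and 12 h (1.99, 1.81 and 1.26). At 6 h Mycl changed by -1.62 and Mxd4 by -1.10.

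Cell type markers moved in the same arrays. Of 7 neutrophil markers 2 were called higher in FVB at 2 h, 6 at 6 h and 7 at 12 h, with scores of -1.67 to -1.57 at 0 h and 0.67 to 1.47 at 6 h. Of 7 fibroblast markers 0 were called higher by limma and 1 lower at 6 h (0 and 4 at an unadjusted p under 0.05), with a median of -1.31. At 12 h 3 fibroblast markers were called lower (the collagen genes Col1a1, Col1a2 and Col3a1) and 1 higher (Pdgfra), with scores of -0.72 to 0.23 against 0.16 to 0.92 at 0 h. Of 7 T cell markers 4 were called lower at 12 h (Cd3e, Cd3d, Cd3g and Thy1), with scores of -0.39 to -0.03 against 0.33 to 1.39, and of 7 macrophage markers 2 were called higher, Mrc1 (2.71) and Fcgr1 (1.41), with scores of 0.41 to 0.70 against -0.55 to -0.26. The part of these cells in the members' rise was not tested.

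In F1 skin the members also rose within hours. At 4 h, a time without FVB arrays, 34 of 36 were called higher and 0 lower (median 1.40; 9.09% of all genes higher, 11.5% lower), and in all 36 the 4 h arrays lay above the 4 control arrays, which held for 25.2% of all genes. The members not called were Ncl (0.95 ± 0.40, limma adjusted p = 0.0856) and Npm1 (0.38 ± 0.35, limma adjusted p = 0.525). Npm1 measured 11.06, 11.22, 11.16 and 11.13 at 0 h and 11.40 and 11.65 at 4 h. Rrp12 measured 6.38, 6.12, 6.70 and 6.37 at 0 h and 8.39 and 8.54 at 4 h, a change of 2.08 ± 0.26. Rrp9 measured 6.77, 6.69, 6.93 and 6.77 at 0 h and 8.66 and 8.70 at 4 h, a change of 1.89 ± 0.19. Both genes were clearly separated from their controls, whereas the gap of Npm1 was small. At the same time 15 of 28 mitosis genes and 17 of 30 DNA replication genes were called lower. Of 7 neutrophil markers 3 were called higher (scores of 0.23 to 0.40 against -1.93 to -1.28 at 0 h). The macrophage marker Mrc1 (2.51) and the fibroblast marker Pdgfra (1.64) were called higher, and the macrophage marker Csf1r (-0.86) lower. The part of these cells was not tested.

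At 6 h in F1 32 members were called higher (median 1.25; 8.79% of all genes), at 12 h 23 (median 0.98; 4.45% of all genes) and at 24 h 2, Bysl (0.85) and Nop2 (0.80), an RNA methyltransferase of the large subunit (median 0.44; 1.58% of all genes). At 6 h 4 of 7 neutrophil markers and 3 of 7 macrophage markers, Cd68 (1.68), Mrc1 (2.66) and Fcgr1 (1.40), were called higher and Csf1r lower. Of the fibroblast markers at 6 h, Col3a1 (-1.57) was called lower and Pdgfra (2.11) higher. At 12 h 4 neutrophil markers, Cd68 and Mrc1 were called higher. The fibroblast genes Col1a1, Col1a2 and Col3a1 were called lower at 12 h and Pdgfra (1.94) higher. Fibroblast list scores at 12 h were -1.16 to -0.86 against -0.64 to 0.47 at 0 h. The part of these cells was not tested. At 48 h 0 were called higher by limma (median 0.19; 2 at an unadjusted p under 0.05; 1.42% of all genes). At 72 h 0 were called higher, and 0 lower with 3 lower at an unadjusted p under 0.05 (median -0.46; 0.361% of all genes higher). That median was 0.05 without the narrow array, in which the members' median change was -0.88 against 0.16 in the other 72 h array. At 1008 h 0 were called higher by limma (median 0.13; 0 at an unadjusted p under 0.05; 0.898% of all genes). At 12 and 24 h 33 and 5 members were called without the 2 narrow arrays (9.63% and 4.09% of all genes in that fit). The 12 h count was 1 and 7 without array 1 or 2 of 12 h and 15 without control 1 or 4, and the 24 h count was 0 without either array of 24 h or control 2 or 4 and 1 without control 1.

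Over 0 to 48 h without the single 2 h array, the highest F1 mean fell at 4 h for 31 members, at 6 h for 3 (Bop1, Ncl and Npm1) and at 12 h for 2 (Fbl and Nhp2), and at 24 h for 22 of 28 mitosis genes. Of all genes it fell at 4 h for 22.1%, 6 h for 15.9%, 12 h for 14.4% and 24 h for 15.4%. At 24 h 24 mitosis genes were called higher in F1. Each batch holds 2 F1 controls and 1 F1 array at each of 4, 6, 12 and 24 h, so calls within a batch are not given. Within batch 2 alone the median changes of the members at these times were 1.28, 1.07, 0.82 and 0.65. Within batch 3 alone they were 1.60, 1.39, 1.10 and 0.32. The medians were above 0 in both batches at all 4 times. Leaving out the second F1 array of 4 h left 17 members called, and leaving out the second of 6 h left 9. The 1 F1 array of 2 h had a median difference from the mean of the controls of 0.13, with 16 members above all 4 controls and 6 below all 4, when 21.1% of all genes lay above. The 1 array of 168 h had 0.18, with 11 of 36 members above all 4 controls, when 24% of all genes were.

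In SPR skin at 4 h 15 members were called higher and 0 lower (median 1.00; 29 higher at an unadjusted p under 0.05; 3.26% of all genes), and 31 were called without the 2 narrow arrays (5.78% of all genes in that fit). In 35 of the 36 both 4 h arrays lay above both controls, which held for 27.5% of all genes. Rrp12 measured 6.37 and 6.78 at 0 h and 8.45 and 8.10 at 4 h (1.70 ± 0.29, limma adjusted p = 0.000103). Rrp9 measured 6.59 and 6.98 at 0 h and 8.53 and 8.44 at 4 h (1.69 ± 0.22, limma adjusted p = 1.68e-06). Both were well separated from the controls. Rrs1 was the exception, with 5.53 and 4.70 at 0 h and 5.97 and 4.32 at 4 h (0.03 ± 0.60, limma adjusted p = 0.999), and its 2 groups overlapped. Npm1 changed by 0.13 ± 0.40 (limma adjusted p = 0.993). Of the neutrophil markers 3 of 7 were higher (scores of 0.41 and 1.12 against -1.18 and -1.13 at 0 h), and 5 of 28 mitosis genes lower; the part of these cells was not tested.

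Within batch 2 alone the SPR median at 4 h was 1.00 with 4 called. Leaving out control 1 or array 1 of 4 h left 5 members called at 4 h, and leaving out array 2 of 4 h left 9. When SPR arrays were fitted alone, without the spread of the other strains, 0 members were called. Both this fit and that of batch 2 alone held the narrow SPR array of 12 h, which enlarges the spread. The 1 SPR array of 2 h lay above both controls in 34 members (median difference 0.58), as did 35.9% of all genes. The 1 array of 6 h did so in 35 (median difference 1.10), as did 47.8% of all genes. That 6 h array belongs to batch 3 and both SPR controls to batch 2, so time and batch cannot be told apart in it. Over 0, 4, 24 and 48 h the highest SPR mean fell at 4 h for all 36 members and at 24 h for 27 of 28 mitosis genes. Of all genes it fell at 4 h for 35.8% and at 24 h for 25%.

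The SPR result at 12 h rested on the narrow array. With it, 1 member was called higher, Bysl (0.94), and 3 lower, Npm1 (-1.38), Nop56 (-1.52) and Ncl (-1.26), with a median of -0.39, when 9.47% of all genes were called higher and 23.3% lower. Npm1 measured 8.40 in the narrow array and 11.43 in the other, while Bysl measured 7.41 and 7.34. Over the 36 members the narrow array had a median change of -1.32 with 3 above 0, and the other array one of 0.62 with 35 above 0. Without the 2 narrow arrays 0 members were called in either direction, and without the other 12 h array 29 were called lower. No member was called lower without SPR control 1 or 2, and none higher without control 1.

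Later SPR times gave no calls in limma. At 24 h 0 members were called higher (median 0.39; 4 at an unadjusted p under 0.05; 0.202% of all genes), at 48 h 0 (median 0.17; 0 at an unadjusted p under 0.05; 0.165% of all genes) and at 1008 h 0 (median -0.16; 0 at an unadjusted p under 0.05; 0% of all genes).

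**Figure D5:**
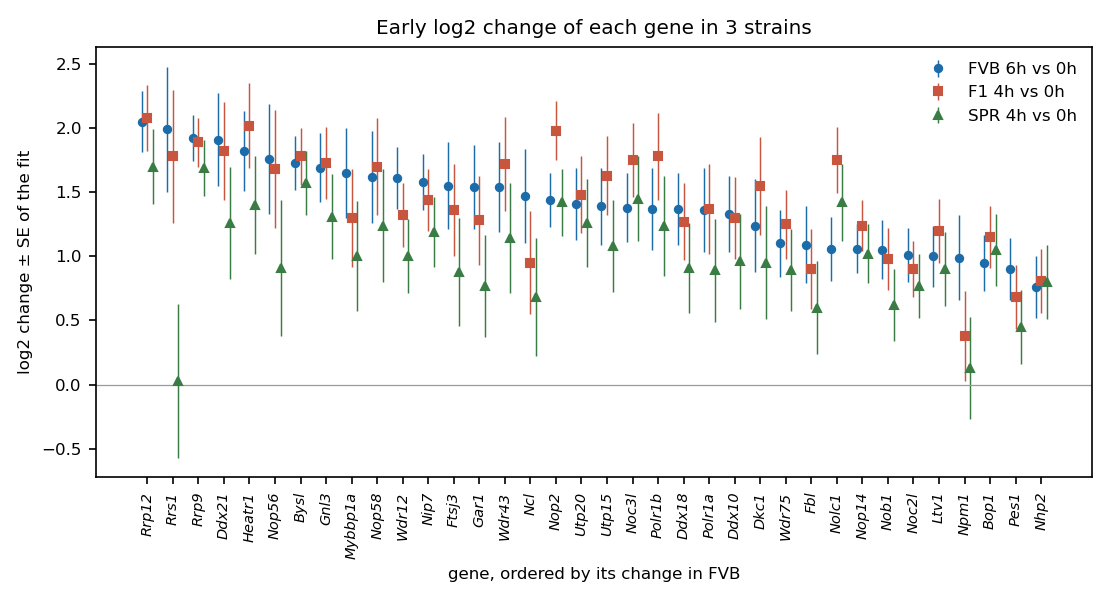
log2 change from 0 h of each of the 36 members with the standard error of the fit, in FVB at 6 h, F1 at 4 h and SPR at 4 h, genes ordered by their FVB change; the times differ between FVB and the others. FVB changes run from 0.76 to 2.05, and the points of Npm1 (F1 0.38, SPR 0.13) and Rrs1 (SPR 0.03) lie lowest among the F1 and SPR values.

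The difference of the change between strains was tested at shared times. At 6 h 0 members differed between F1 and FVB by limma (median difference -0.25, range -0.59 to 0.38; 1 lower at an unadjusted p under 0.05; 0% of all genes lower). The largest negative difference was that of Npm1 (-0.59 ± 0.48, limma adjusted p = 1.0). At 12 h 0 differed (median -0.27; 1 lower at an unadjusted p under 0.05; 0% of all genes lower). With these errors, a difference in 1 gene of the size of its standard error could not be detected, so the test does not show that F1 and FVB respond alike. Between SPR and F1 at 4 h 0 members differed (median -0.35; 1 lower at an unadjusted p under 0.05; 0.00531% of all genes lower), and the member behind that 1 was Rrs1 (-1.76 ± 0.80, limma adjusted p = 1.0).

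At 1008 h the change of 1 member, Rrp9, was lower in F1 than in FVB (median difference -0.43, with 0.935% of all genes lower). Without the 2 narrow arrays 5 were lower (3.59% of all genes in that fit). The call of Rrp9 was lost without FVB controls 2 and 3, which leaves 1 FVB control. The 1008 h arrays of Rrp9 in F1 measured 6.30, 6.37, 6.67, 6.65, 6.60 and 6.66, below all 4 F1 controls. In FVB they measured 7.25, 7.10 and 7.16, above its controls. The difference of the changes was -1.05 ± 0.23 (limma adjusted p = 0.00843). Next by adjusted p came Bysl (-0.85, 0.10), Npm1 (-1.30, 0.117), Rrs1 (-1.61, 0.222) and Gar1 (-1.06, 0.229), which did not pass. In the same F1 arrays 0 of 7 hair matrix markers were called higher by limma (0 at an unadjusted p under 0.05; scores of -0.27 to 0.41 against -0.05 to 0.72 at 0 h), against 6 of 7 in FVB, and their part in the difference was not tested. Between SPR and FVB at 1008 h 0 members differed by limma (median -0.74; 10 lower at an unadjusted p under 0.05; 0.744% of all genes lower), and 10 were lower without the 2 narrow arrays (3.96% of all genes in that fit).

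At 12 h 29 members were called lower in SPR than in FVB (median difference -1.66; 14.7% of all genes lower) and 13 lower in SPR than in F1 (median -1.32; 5.32% of all genes lower). Without the 2 narrow arrays 0 members were called in either comparison, with medians of -0.64 and -0.31. The count against FVB was 12 without SPR control 2, and that against F1 was 0, 4 or 7 without any 1 of the 4 F1 controls, 0 without either F1 array of 12 h or either SPR control, and 34 when the other SPR array of 12 h was left out.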

How the data were processed

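RNA of dorsal skin was measured on 69 Affymetrix arrays, and the deposited values are log2 expression values of 35556 probe sets, made with RMA per the submitters' processing notes, which name no version. RMA as usually run brings arrays to a common distribution, which removes a change shared by most genes; the deposited arrays do not all share 1 distribution. A batch adjustment before deposit could hide level differences between strains; the sources used here do not say whether one was made. The platform annotation gave 1 symbol to 21218 probe sets and several to 1881, which were not used, and 12457 were not named in that table. That left 18820 genes; where several probe sets named a gene, the one highest on average in the 66 assigned arrays was kept. The strain and hours in the labels define the groups.

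A single limma fit (version 3.58.1, lmFit and eBayes, R 4.3.3) held the means of 27 groups and the difference of batch 3 from batch 2, with 38 residual degrees of freedom. Calls are at a Benjamini-Hochberg adjusted p under 0.05 over all genes, two-sided. The fit was tested on simulated data of the FVB 6 h comparison: of 100 genes raised or lowered by 0.75 log2 it recovered 29%, and of 100 changed by 1.5 log2 85%. All other genes were held unchanged there, whereas in the data 12.1% of all genes were called higher and 12.6% lower. The adjusted p threshold was therefore stricter in the simulation, and its shares do not give the recovery in the real comparison. The number of arrays limits the precision.

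The members and all gene lists were chosen with earlier results of these data known, so counts over a list are descriptions. Values in every array are given for the 2 members of each role with the largest called rise in FVB at 6 h, other lists are shown by up to 4 genes with the largest change, and strain contrasts by up to 5 members. Nolc1, Bop1, Npm1 and Bysl were added after their values were seen. Alternatives were other scalings, probe set rules, a fold threshold, each strain or batch alone, a replicate block and leaving out arrays. Promoters were read from RefSeq and searched by exact match.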

Additional observations from a re-analysis of the deposited data

Results flagged for a closer look

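Between strains at 1008 h, 1 member (Rrp9) changed differently in F1 and FVB, by -1.05 ± 0.23. At 12 h 29 members changed differently in SPR and FVB and 13 in SPR and F1, all lower in SPR, and 0 did in either comparison without the 2 arrays of narrow range. The 3 arrays whose strain the labels do not give had member scores of 0.10 (labelled 2 h), 0.71 (labelled 6 h) and 0.32 (no time given), all above the highest score of any control array, -0.04.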

How the results depend on the processing

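Over all other settings, 226 of 314 counts of called members stayed within 1.5 times the main count and 88 did not, and with 1 array left out in turn 126 of 191 stayed and 65 did not; counts are of members called higher against 0 h unless another comparison is given, and the cause of these moves was not tested. Cyclic loess gave 30 members in FVB at 24 h, 7 at 48 h, 1 at 168 h, 22 at 1008 h, 6 in F1 at 24 h, 29 in SPR at 4 h, 7 higher and 0 lower in SPR at 12 h, 4 lower in FVB at 72 h, 9 from 2 to 6 h, 16 from 168 to 1008 h, 23 lower from 6 to 24 h, 10 from 12 to 24 h and 19 from 24 to 48 h, and for strain differences 6, 12 and 0 (F1 minus FVB at 1008 h, SPR minus FVB and SPR minus F1 at 12 h). Without the 2 narrow arrays the same 17 counts were 27, 8, 1, 22, 5, 31, 0, 0, 7, 13, 15, 26, 16, 15, 5, 0 and 0. With each strain fitted alone the first 5 were 25, 5, 1, 18 and 5, F1 at 48 h had 1, SPR had 0 at 4 h and 0 and 0 at 12 h, 4 were lower in FVB at 72 h, and the 5 FVB intervals gave 7, 11, 25, 11 and 10. A minimum change of 1 log2 unit gave 2, 1 and 4 in FVB at 24, 48 and 1008 h, 15 and 0 in F1 at 12 and 24 h, 0 higher in SPR at 12 h, 0 lower in FVB at 72 h, and 0, 0, 5 and 0 from 2 to 6, 168 to 1008, 6 to 24 and 12 to 24 h. Without the 2 FVB controls with liver transcripts the counts were 11, 20, 3, 0 and 2 in FVB at 2, 12, 24, 48 and 1008 h, 0 lower at 72 h, 0 for F1 minus FVB at 1008 h and 18 for SPR minus FVB at 12 h. Batch 2 alone, which holds both narrow arrays, gave 4 in SPR at 4 h and 0 in either direction at 12 h. The fit of SPR alone also held the narrow SPR array. In F1 each batch holds 1 array at each of 4, 6, 12 and 24 h, so those counts are not given. Centring on the median, which shifted the median of all genes by up to 0.20 (FVB, 2 h), gave 0 lower at 72 h, 0 from 2 to 6 h, 1 lower from 12 to 24 h and 2 for F1 minus FVB at 1008 h; averaging probe sets gave 2 from 2 to 6 h, and leaving out the dimmest genes gave 23 for SPR minus F1. The correlation of deviations of same-numbered FVB arrays ran from -0.61 to 0.37 over 24 pairs. These pairs reuse the same 3 control arrays, so they cannot decide whether equal replicate numbers pair arrays. A replicate block gave 1 in FVB at 48 h, 14 and 0 in F1 at 12 and 24 h, 1 lower from 12 to 24 h and 0 for SPR minus F1 at 12 h. With 1 array left out the counts ran from 5 to 17 (FVB 24 h), 0 to 1 (48 h), 5 to 7 (1008 h), 17 to 33 (F1 4 h), 9 to 31 (6 h), 1 to 18 (12 h), 0 to 2 (24 h), 5 to 11 (SPR 4 h), 0 to 1 higher and 0 to 29 lower (SPR 12 h), 0 to 3 lower (FVB 72 h), 0 to 0 (2 to 6 h), 1 to 2 (168 to 1008 h), 4 to 15 lower (6 to 24 h), 0 to 2 (12 to 24 h), 0 to 1 (24 to 48 h), and 0 to 34 for both SPR differences at 12 h. Rrs1 in SPR at 4 h reversed, ranging between -0.79 and 0.85 with 1 array left out (-0.39 without SPR 0 h replicate 2, -0.79 without SPR 4 h replicate 1). Of 192 values of the described members in FVB at 6 h 189 kept their direction and side of the threshold and 3 lost the call; in F1 at 4 h 193 of 216 did, with 18 losing and 5 gaining it, and in SPR at 4 h 154 of 180, with 12 losing, 12 gaining and 2 reversed. The alternatives for the strain differences, and the other lists without the narrow arrays, were chosen after seeing the data.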
